A study of Oryctolagus cuniculus with 12 samples.

Results

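The comparison described here sets rabbit cornea labelled blue light (BL) against control cornea, with 3 RNA sequencing libraries in each group. These are 6 of the 12 libraries in the series; the other 6 carry the labels GL and RL, which the labels do not spell out. Genes were included when they reached an FPKM (fragments scaled by transcript length and library size) of at least 1 in 3 or more of the 6 libraries, which kept 13414 of 29076 listed genes. A gene can meet this rule through one group alone: 24 genes reached 1 in all 3 blue light libraries and in no control, and 26 in all 3 controls and in no blue light library, and such genes had to differ. A band of 191 genes lay just inside it, with a third-highest FPKM between 1 and 1.1, and 232 genes lay just outside, between 0.9 and 1.

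All libraries came from whole cornea of animals aged 6 months on an ordinary diet, and no strain, sex or genotype is given in the labels. The same treatment note, exposure to light over 6 weeks, stands on every library including the controls, so the labels separate the groups by name only. The sources used here give no wavelength, intensity, daily schedule or hour at which tissue was taken. The labels do not state that each library is a different animal, so the p-values rest on a spread between libraries that may be technical.

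The cornea is the clear front wall of the eye. A stratified epithelium marked by the keratin pair KRT12 and KRT3 covers a stroma of collagen and leucine-rich proteoglycans made by keratocytes, and an inner sheet of pump cells, the corneal endothelium, keeps that stroma dehydrated. Short-wavelength visible light is absorbed by flavins and porphyrins in cells and can generate reactive oxygen species, and light sensed in the eye sets circadian clocks. Epithelial cell division in the cornea follows a daily rhythm. The gene lists below follow these themes.

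Total estimated counts ran from 40.9 to 58.8 M (mega) in blue light and from 44.4 to 56.9 M in control. Control 1 stood closer to the blue light libraries than the other controls did. Its correlation with them on log2 CPM (counts scaled by library size) lay between 0.946 and 0.953, in the range of the blue light libraries among themselves (0.942 to 0.956), while control 2 reached 0.913 to 0.937 and control 3 reached 0.919 to 0.939. The number of genes with 1 to 20 counts followed the same arrangement, at 2563, 2562 and 2389 in blue light 1 to 3 and 2561 in control 1, against 1039 and 1300 in control 2 and 3. In the GL and RL libraries it ran from 767 to 1461, except for 2486 in RL 1. Retinal transcripts, described with the cell types, were highest in blue light 1 and control 2 among the 6 libraries.

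Across the 13414 genes the comparison was nearly symmetrical. The median log2 difference, blue light minus control, was 0.0018, and 6743 genes (50.3%) stood higher in blue light. By edgeR's quasi-likelihood test, unadjusted p was under 0.05 for 209 genes that stood higher (1.56%) and 222 that stood lower (1.65%). In 498 genes (3.71%) all 3 blue light libraries lay above all 3 controls, and in 588 (4.38%) all lay below. After Benjamini-Hochberg adjustment over all genes tested, 2 genes rose (0.0149%) and 1 fell (0.00745%). The fit drew its estimate of spread from all 12 libraries. The 6 libraries alone gave 9 calls, DESeq2 gave 15, and leaving out control 1 gave 12. Without blue light 1, control 2 and GL 3, the 3 libraries with most retinal transcript, 1 call remained.

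The 3 genes that passed are all unnamed copies of known genes. Whether reads were divided between a copy and the gene it resembles was not tested. LOC100344965 is annotated as ATP synthase coupling factor 6, a subunit of the mitochondrial ATP synthase stalk, and lies on chromosome 1 at 181107705 to 181108170 in the deposited coordinates. Its FPKM was 67.5, 49.1 and 52.2 in blue light 1 to 3 and 9.71, 9.84 and 12.5 in control 1 to 3. Every blue light library exceeded every control, and the gene rose by 2.39 ± 0.23 on the log2 scale (SE; adjusted p = 0.00144), a 5.24-fold difference. The regular gene for the same subunit, ATP5J on chromosome 14, stood the other way at 106, 87.8 and 86.3 against 115, 141 and 153, with a log2 difference of -0.55 ± 0.17 (unadjusted p = 0.00692, not past the threshold after adjustment). On the FPKM scale the level of ATP5J was above that of the copy in each of these libraries. Without blue light 1, control 2 and GL 3, LOC100344965 stood higher by 2.22 but had an adjusted p of 0.251.

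LOC100344261 is annotated as an adenosylhomocysteinase-like gene of low quality and lies on chromosome X at 53025870 to 53027353. Adenosylhomocysteinase (AHCY) clears the by-product of methylation reactions. The copy stood at 4.09, 3.86 and 3.04 FPKM in blue light and 16.6, 28.2 and 17.2 in control, and LOC100344261 fell by 2.50 ± 0.33 on the log2 scale (adjusted p = 0.0249). AHCY itself was level, at 199, 231 and 245 FPKM in blue light and 226, 235 and 217 in control (log2 difference -0.01 ± 0.19). This call was lost in 7 of the omissions of a single library: by edgeR the adjusted p of LOC100344261 was 0.2, 0.12 and 0.297 without blue light 1, 2 and 3, 0.14 and 0.0652 without control 2 and 3, and 0.0517 and 0.0536 without GL 1 and 3.

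LOC100339782 is a partial copy of KMT2A, a histone H3 lysine 4 methyltransferase, on an unplaced sequence at 75393 to 85790. It was at 2.64, 2.66 and 1.85 FPKM in blue light and had a count of 0 in all 3 controls (adjusted p = 0.000195), so it met the level rule through blue light alone. Against a floor of 3 fragments in the control library with the highest floor (0.248 CPM, per library), LOC100339782 was at least 38.2-fold higher in blue light, where its mean was 9.45 ± 1.76 CPM (SD, n = 3). KMT2A stood at 11.4, 9.81 and 9.58 FPKM in blue light and 9.34, 9.18 and 11.2 in control, so the full gene did not separate the groups.

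**Figure D1:**
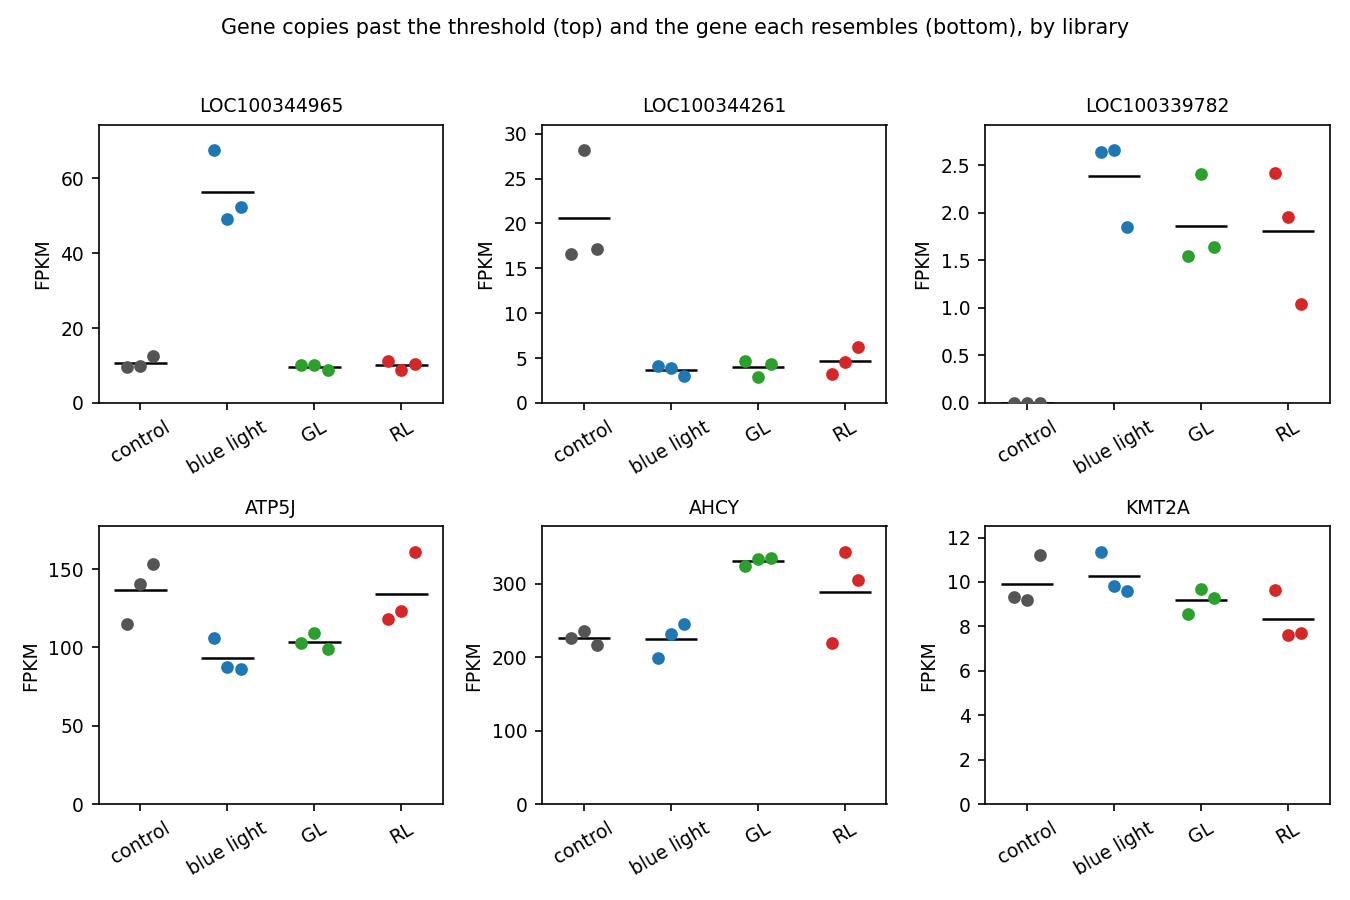
FPKM of the 3 copies past the threshold (top) and of the genes they resemble (bottom) in each library of the 4 groups, with a bar at the group mean. LOC100344965 was at 49.1 to 67.5 in the blue light libraries and at 12.5 or below in the others, whereas for LOC100344261 and LOC100339782 the control libraries stood apart from blue light, GL and RL alike.

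The 3 calls were then set against the GL and RL libraries. Blue light minus the mean of GL and RL gave 1 call among the 13414 genes (0.00745%), LOC100344965, which was higher by 2.44 ± 0.18 on the log2 scale (adjusted p = 0.000162). Its mean FPKM was 9.64 ± 0.81 in GL and 10.2 ± 1.33 in RL (SD, n = 3), the control level. LOC100344261 stood at 3.96 ± 0.92 in GL and 4.67 ± 1.51 in RL, and LOC100339782 at 1.87 ± 0.47 and 1.81 ± 0.70. For these the difference between blue light and the mean of GL and RL was -0.30 ± 0.28 and 0.32 ± 0.31 on the log2 scale, with adjusted p = 0.62 and 0.65. A copy of the ribosomal protein L3 gene, LOC100343607, chosen after its values were seen, stood at 3.71, 4.40 and 4.38 FPKM in blue light and 33.2, 41.5 and 40.2 in control. Its GL libraries fell into both ranges, at 42.9, 3.75 and 42.97, and the spread of this shared fit left LOC100343607 at adjusted p = 0.678. Without GL 2 the spread narrowed and it passed, with a log2 difference of -3.20 (adjusted p = 0.00035).

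The tissue was recognisably cornea in all 6 libraries. KRT12 stood at 9036, 10771 and 10516 FPKM in blue light and 11858, 9337 and 7739 in control, and KRT3 at 1693, 1967 and 2536 against 2331, 2268 and 2007. ALDH1A1, an aldehyde dehydrogenase abundant in rabbit cornea, was at 3275, 4325 and 3915 against 3732, 2875 and 2919. The groups overlapped for each of these. Of the 23 differentiated epithelium genes tested, 12 stood higher in blue light, none had an unadjusted p under 0.05, and their median log2 difference was 0.02 against 0.0018 for all genes. Limbal and basal epithelium gave 9 of 18 higher and a median of -0.01, with the basal regulator TP63 at 21.5, 36.2 and 19.5 against 33.9, 19.2 and 28.7. Fewer cells of a type and less RNA per cell cannot be told apart in such bulk libraries.

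Stromal keratocyte genes did not move as a block. Of 24 tested, 6 stood higher and the median log2 difference was -0.16, but the direction turned without blue light 1 (16 of 24 higher, median 0.13), without the 3 libraries with most retinal transcript (19, 0.11), and with the log2 of the number of genes at 1 to 20 counts as a covariate (16, 0.15). The most abundant members were among those that stood higher. KERA, the keratan sulphate proteoglycan keratocan, was at 3406, 2518 and 2743 FPKM against 3268, 1829 and 1979. LUM (lumican) was at 3127, 2461 and 2614 against 2586, 1799 and 1908, with a log2 difference of 0.38 ± 0.19 (unadjusted p = 0.066). OGN (osteoglycin) was at 3470, 2150 and 2160 against 2519, 1240 and 1331 (0.61 ± 0.30, unadjusted p = 0.0637). In all 3, control 1 lay within the blue light range and control 2 and 3 below it. The summed FPKM of the list was 26020, 27341 and 29497 in blue light and 28527, 23444 and 24132 in control, with overlapping groups. The keratocyte list shares ALDH1A1, ALDH3A1 and TKT with the differentiated epithelium list. It shares AQP1 and COL8A2 with the corneal endothelium list, so sums of these lists are not independent.

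Of the activated fibroblast list, 3 contractile genes with low levels stood lower. ACTA2, smooth muscle actin, was at 0.738, 2.33 and 1.53 FPKM in blue light and 2.95, 3.85 and 3.62 in control, and TPM2 (tropomyosin) at 10.05, 7.71 and 7.94 against 13.3, 11.9 and 11.9. TAGLN, an actin-binding protein of smooth muscle, was at 4.29, 5.41 and 6.01 against 5.31, 16.7 and 13.04 (log2 difference -1.16 ± 0.53, unadjusted p = 0.0473). ACTA2 and TPM2 separated the groups downward (4.38% of all genes) and 1 other member of the list upward (3.71%), and none passed the adjusted threshold. COL3A1, in the same list, stood the other way but overlapped, at 18.6, 11.5 and 15.6 against 8.75, 12.8 and 9.29. In all, 8 of 17 members stood higher, with a median log2 difference of -0.05. Abundant ones overlapped, such as the filament protein VIM (vimentin) at 220, 181 and 232 against 164, 272 and 221. Without the 3 libraries with most retinal transcript, 11 of 17 stood higher with a median of 0.10. None then had an unadjusted p under 0.05 by edgeR, while 150 of all 13414 genes did.

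For corneal endothelium, 6 of 19 genes stood higher and the median log2 difference was -0.07, which turned to 14 and 0.11 without the 3 libraries with most retinal transcript and to 17 and 0.18 with that covariate. SLC4A11, a transporter of the endothelial pump, was at 85.9, 136 and 95.6 FPKM against 120, 197 and 145, and COL8A2, a collagen of Descemet's membrane, at 322, 295 and 341 against 279, 503 and 368. In the conjunctiva and goblet cell list, 4 of 12 stood higher. KRT8, a simple-epithelium keratin, was at 12.4, 22.96 and 15.1 against 42.7, 32.7 and 25.8, lower in every blue light library than in any control (-0.999 ± 0.289, unadjusted p = 0.00521). Leukocyte genes were sparse, with 8 of 30 listed genes tested, of which 5 stood higher (median 0.15). KIT was the only one with an unadjusted p under 0.05. KIT, the stem cell factor receptor of mast cells and melanocytes, was at 1.03, 1.33 and 0.775 against 1.78, 3.71 and 3.70 (-1.56 ± 0.45, unadjusted p = 0.00485). CD74, the invariant chain of antigen-presenting cells, overlapped at 4.42, 12.1 and 14.9 against 11.3, 9.72 and 12.7.

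Lens and retina transcripts were present and uneven among libraries. The 18 lens genes tested summed to 22401 FPKM in blue light 1, to 2887 and 3491 in blue light 2 and 3, and to 7976, 11781 and 7453 in control 1 to 3. The lens water channel MIP followed a similar order, at 216, 3.49 and 5.62 against 13.8, 24.6 and 13.96. The groups overlapped in 17 of the 18, and LENEP, a lens epithelial protein, was lower at 5.38, 2.48 and 3.80 against 7.95, 14.98 and 10.7 (-1.54 ± 0.44, unadjusted p = 0.0043). The 5 retina genes of 23 listed that were tested summed to 73.4, 12.3 and 14.7 FPKM against 5.57, 36.1 and 5.87, and among them the rod gene SAG (arrestin) was at 14.2, 2.52 and 2.49, with counts of 0 in control 1 and 3 and 9.47 in control 2. Their part in the differences of other genes was not tested beyond the fit without blue light 1, control 2 and GL 3. Blue light 2 and 3 also held more retinal transcript than control 1 and 3, so that fit did not even out the retina list. Nor did it even out the lens list, of which 1 of 18 then stood higher with a median log2 difference of -1.44. With all libraries 8 of 18 lens genes stood higher, with a median of -0.11. In that fit all 5 retina genes stood higher, with a median log2 difference of 2.01 against 0.65 with all libraries. Of these, 3 had an unadjusted p under 0.05 by edgeR, against 150 of all 13414 genes. Among the 5, 4 were below an FPKM of 1 in at least 1 control and 0 in any blue light library. The retina list thus met the level rule mainly through blue light. Without blue light 1 alone, 2 of 5 stood higher, with a median of -0.18.

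**Figure D2:**
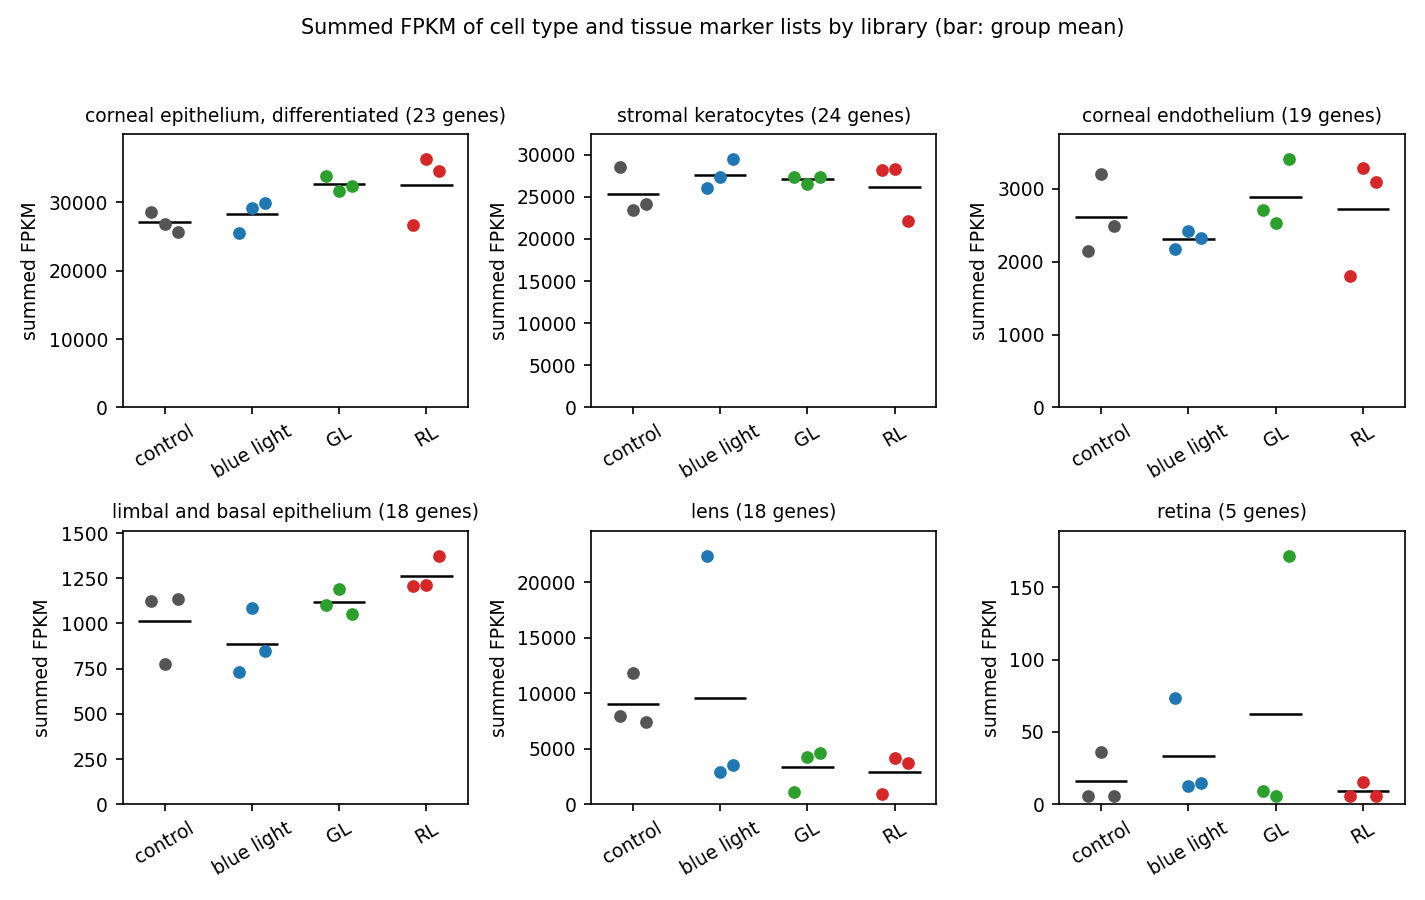
Summed FPKM of 6 marker lists in each library of the 4 groups, with a bar at the group mean. Epithelial and keratocyte sums differed little, while the lens sum of blue light 1 (22401) lay far above those of blue light 2 and 3 and the retina sum was high in blue light 1, control 2 and GL 3.

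All 32 tested mitosis genes stood higher in blue light, against 50.3% of all genes, with a median log2 difference of 0.87. In 11 of them the groups did not overlap, with blue light higher (3.71% of all genes), and 9 had an unadjusted p under 0.05 (1.56% of all genes), but none passed the adjusted threshold. Of the 32, 13 were below an FPKM of 1 in at least 1 control, and 1 in at least 1 blue light library, so part of the list met the level rule mainly through blue light. At an FPKM of at least 5, 12 members were left, all higher, with a median of 0.81. The kinase CDK1, which drives entry into mitosis, was at 19.3, 14.3 and 18.7 FPKM against 12.4, 7.28 and 6.79 (0.98 ± 0.26, unadjusted p = 0.00271). Its partner cyclin CCNB1 was at 8.15, 10.5 and 11.9 against 6.43, 3.50 and 4.93 (1.04 ± 0.31, unadjusted p = 0.00593). For both, control 1 was the highest control and lay just under the lowest blue light library.

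Genes of the spindle and kinetochore were among the members that separated the groups. HMMR, a spindle-associated hyaluronan receptor, was at 3.53, 4.71 and 2.76 FPKM against 1.42, 1.37 and 0.50 (1.73 ± 0.48, unadjusted p = 0.00353). KIF14, a kinesin of cytokinesis, was at 2.44, 3.28 and 2.40 against 1.65, 0.525 and 0.891 (1.41 ± 0.38, unadjusted p = 0.00277). NUF2, of the NDC80 kinetochore complex, was at 6.02, 3.51 and 3.88 against 3.40, 1.43 and 1.24 (1.14 ± 0.38, unadjusted p = 0.0114), and TPX2, which builds spindle microtubules, at 9.44, 10.9 and 7.80 against 7.79, 2.75 and 3.28 (1.03 ± 0.38, unadjusted p = 0.0171). Levels were low in all 4. UBE2C, the ubiquitin-conjugating enzyme of mitotic exit, overlapped slightly at 9.99, 17.4 and 14.4 against 10.1, 6.34 and 6.35 (0.88 ± 0.33, unadjusted p = 0.0213).

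Other members overlapped. MKI67, the common proliferation marker, was at 3.07, 7.34 and 4.08 FPKM against 5.74, 0.748 and 1.99, and TOP2A, the topoisomerase of chromosome condensation, at 5.89, 11.8 and 6.60 against 10.3, 1.57 and 3.57. The kinase PLK1 was at 5.06, 3.98 and 5.46 against 4.23, 4.45 and 4.01, and PRC1, which bundles midzone microtubules, at 2.46, 4.50 and 5.23 against 4.43, 3.34 and 4.46. In MKI67 and TOP2A control 1 stood among the blue light values and far above control 2 and 3.

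Replication genes did not share this direction. Of 27 S-phase genes, 10 stood higher, none had an unadjusted p under 0.05, and the median log2 difference was -0.06. PCNA, the polymerase clamp, was at 44.5, 66.4 and 41.3 FPKM against 61.0, 41.9 and 41.1, and the helicase subunit MCM2 at 4.37, 3.84 and 5.42 against 5.25, 6.61 and 5.84. CCNE2, a cyclin of S-phase entry, was the only member that separated upward, at 2.64, 1.74 and 2.03 against 1.202, 0.189 and 0.671 (1.63 ± 0.79, unadjusted p = 0.0599). Among kinase inhibitors and G1 regulators, 7 of 15 stood higher. CDKN1A, the p21 inhibitor, was at 49.1, 86.4 and 78.5 against 65.2, 129 and 73.8, and CDK4 at 23.7, 30.6 and 30.2 against 31.4, 38.01 and 42.1, lower in every blue light library.

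The mean log2(FPKM + 1) of the mitosis list was 2.55, 2.68 and 2.62 in blue light 1 to 3 and 2.49, 1.53 and 1.77 in control 1 to 3, so the gap lay between control 2 and 3 and the other 4 libraries. In GL it was 2.45, 2.13 and 1.92 and in RL 2.69, 2.10 and 2.44, and control 2 and 3 were the lowest of the 12. Against the mean of GL and RL, 25 of the 32 stood higher in blue light with a median of 0.41. The number of genes at 1 to 20 counts was high in all blue light libraries, control 1 and RL 1, whose mitosis means were 2.49 to 2.69, but GL 1 and RL 3 reached similar means with 1262 and 1055 such genes. What this number contributed was not tested beyond the covariate. Low genes in general leaned slightly the same way, with a median log2 difference of 0.09 over 1301 genes with a mean FPKM from 1 to 2, 0.03 over 2478 genes from 2 to 5 and -0.01 over 4309 genes from 10 to 30. With the log2 of the number of genes at 1 to 20 counts as a covariate, 28 of 32 stood higher and the median was 0.50. By edgeR 6 were then at an unadjusted p under 0.05 (396 of all 13414 genes). The median was 1.45 without control 1 and 0.55 without control 2. Without the 3 libraries with most retinal transcript, all 32 stood higher with a median of 0.65. Of these, 5 were at an unadjusted edgeR p under 0.05 (150 of all 13414 genes).

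**Figure D3:**
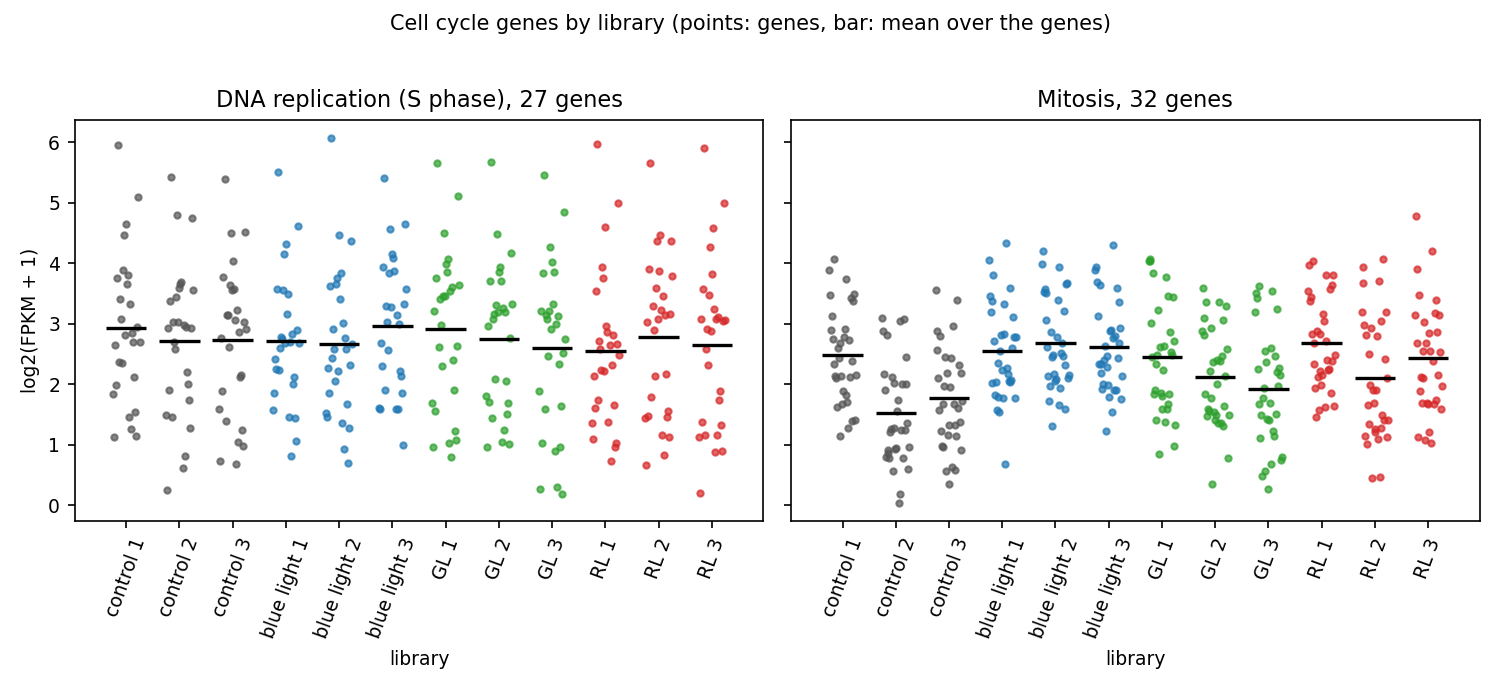
Each point is a gene's log2(FPKM + 1) in a library, for 27 S-phase genes (left) and 32 mitosis genes (right), with a bar at the mean over the genes. Mitosis means are 2.55 to 2.68 in blue light and 2.49 in control 1 but 1.53 and 1.77 in control 2 and 3, and the S-phase means show no such step.

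In the clock lists 3 genes separated the groups, 1 of 5 activators upward and 1 of 10 repressors and 1 of 11 outputs downward. Over all genes 3.71% separated upward and 4.38% downward. ARNTL (BMAL1), the activating arm of the clock, was at 17.97, 15.5 and 17.96 FPKM in blue light and 13.2, 8.23 and 9.05 in control, with a log2 difference of 0.75 ± 0.19 (unadjusted p = 0.00173). NR1D1 (REV-ERB alpha), the nuclear receptor that represses ARNTL, was at 16.9, 17.9 and 16.1 against 49.3, 36.3 and 30.7 (-1.19 ± 0.35, unadjusted p = 0.00485). TEF, a PAR bZIP factor driven by the clock, was at 27.8, 26.6 and 37.01 against 40.3, 54.1 and 55.4 (-0.72 ± 0.23, unadjusted p = 0.00934). The groups did not overlap for any of the 3, and for each the adjusted p was 0.999.

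The rest of the clock differed less. CLOCK, the partner of ARNTL, was at 21.4, 22.6 and 22.4 FPKM against 16.8, 23.3 and 26.5, and its paralogue NPAS2 at 14.9, 16.1 and 15.6 against 13.99, 13.5 and 15.5. The period gene PER1 was at 27.02, 26.1 and 30.6 against 24.2, 35.8 and 47.1 and PER2 at 8.90, 5.86 and 8.34 against 6.06, 7.99 and 11.8. HLF, a relative of TEF, was at 74.1, 60.2 and 89.6 against 83.1, 94.7 and 96.3 (-0.30 ± 0.16, unadjusted p = 0.0881). All of these overlapped. Over the lists, 3 of 5 activators, 2 of 10 repressors and 3 of 11 outputs stood higher, with median log2 differences of 0.09, -0.16 and -0.20. Without control 3 the repressors gave 4 of 10 higher and a median of 0.00.

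Set beside the remaining groups, NR1D1 was at 42.6, 32.4 and 49.4 FPKM in GL and 41.7, 13.1 and 41.6 in RL. The difference of NR1D1 from their mean was -1.16 (unadjusted p = 0.0029), although RL 2 lay below every blue light library. ARNTL differed from that mean by only 0.19 (unadjusted p = 0.257), with GL at 14.9, 14.2 and 12.0 and RL at 17.2, 14.7 and 13.5. TEF in RL was at 23.97, 37.96 and 29.6, spread around the blue light values.

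**Figure D4:**
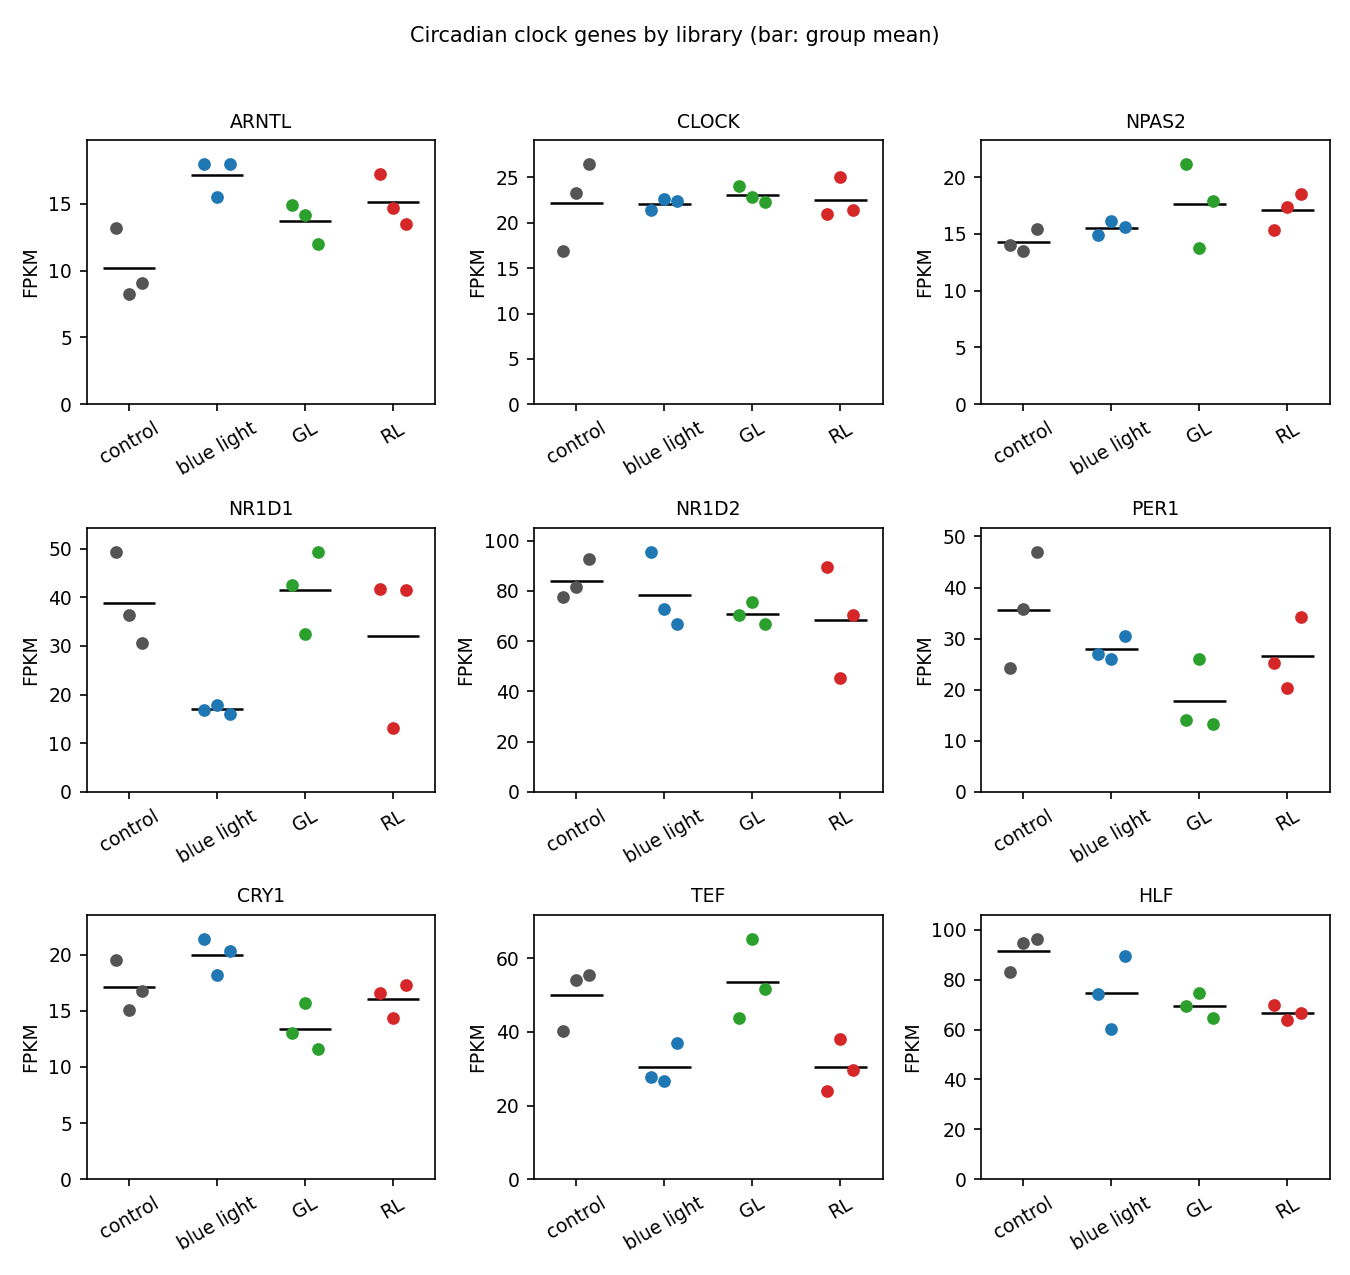
FPKM of 9 clock genes in each library of the 4 groups, with a bar at the group mean. ARNTL is higher and NR1D1 and TEF are lower in all 3 blue light libraries than in any control, while CLOCK, NPAS2, NR1D2, PER1, CRY1 and HLF overlap.

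Light-sensing genes gave no separated member. OPN3 (encephalopsin), a non-visual opsin, was at 13.7, 15.5 and 11.6 FPKM against 10.5, 18.6 and 15.2, and OPN5 (neuropsin) at 2.003, 1.99 and 1.26 against 2.87, 1.97 and 3.89. OPN3 was lower than in GL and RL by 1.02 on the log2 scale, where its mean FPKM was 29.2 and 23.8 (unadjusted p = 0.00396), while OPN3 differed from control by -0.13 ± 0.32. Of the 14 genes for cryptochromes and for flavin and porphyrin enzymes, 5 stood higher, with CRY1 at 21.4, 18.1 and 20.3 against 19.6, 15.1 and 16.7.

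Stress pathways stayed close to all genes. Of 29 antioxidant and NRF2 targets, 12 stood higher and the median log2 difference was -0.01. NFE2L2 (NRF2) itself was at 59.2, 101 and 57.4 FPKM against 84.7, 45.7 and 63.5. GCLC, the rate-limiting enzyme of glutathione synthesis, stood higher on average at 25.9, 25.2 and 17.3 against 19.9, 11.02 and 18.1 (0.48 ± 0.23, unadjusted p = 0.0571). FTL, the ferritin light chain, was at 289, 350 and 344 against 383, 534 and 473 and separated the groups downward (-0.50 ± 0.21, unadjusted p = 0.0335). In the iron list CP (ceruloplasmin, a ferroxidase) was at 16.8, 39.2 and 24.1 against 46.8, 38.3 and 42.1 (unadjusted p = 0.0314) and AIFM2, a suppressor of ferroptosis, at 1.40, 1.17 and 2.58 against 2.07, 3.98 and 4.05 (unadjusted p = 0.0378). With FTL these were 3 of 14 iron genes with an unadjusted p under 0.05, all lower (1.65% of all genes), and none passed after adjustment. In all, 6 of the 14 stood higher, and ACSL4, a lipid-activating enzyme of ferroptosis, separated upward at 8.14, 11.2 and 7.61 against 7.17, 6.60 and 7.42. None of the 14 had an unadjusted p under 0.05 by edgeR without blue light 1, where 254 of all 13414 genes did. The same held without the 3 libraries with most retinal transcript, where 150 of all genes did. In that fit 7 of the 14 stood higher with a median log2 difference of 0.01. With the number of genes at 1 to 20 counts as a covariate, 1 of the 14 was under 0.05, against 396 of all genes. There 7 stood higher, with a median of 0.01.

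Of 18 DNA damage response genes 12 stood higher, with a median of 0.14. XPC, a sensor of helix-distorting damage in nucleotide excision repair, was at 62.0, 57.8 and 55.6 FPKM against 31.2, 49.1 and 46.9 (0.46 ± 0.22, unadjusted p = 0.0638) and separated the groups, and its partner DDB2 was at 170, 92.4 and 141 against 114, 95.5 and 87.0 (unadjusted p = 0.053). DNA repair genes had a median of 0.02 and apoptosis genes 0.00. Heat shock genes were higher in 8 of 13. HSPA8, the constitutive HSP70, reached 1337 in blue light 2 against 599 and 478 in blue light 1 and 3 and 513 to 600 in control. Of 22 endoplasmic reticulum stress genes 9 stood higher. DDIT3 (CHOP) was at 20.3, 22.4 and 23.8 against 23.8, 27.7 and 35.2, and HERPUD1, of the degradation complex, at 56.7, 63.7 and 81.0 against 76.7, 109 and 85.8 (-0.43 ± 0.19, unadjusted p = 0.045).

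The immediate early genes, which respond to stimuli within minutes, had the lowest median of the 64 lists, -0.29, with 4 of 19 higher, against 13 of 19 and a median of 0.07 without the 3 libraries with most retinal transcript. Their spread was between libraries and not between groups. FOS was at 73.0, 162 and 279 FPKM against 273, 313 and 77.9, and FOSB at 3.03, 20.5 and 36.1 against 34.8, 62.5 and 6.32. BTG2 was at 15.3, 31.3 and 54.8 against 69.5, 92.1 and 21.1. In each, blue light 1 and control 3 were the low libraries, no member separated the groups, and none had an unadjusted p under 0.05.

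Among immune lists the interferon response held the gene with the smallest p of all symbol-bearing genes. TRIM25, the ubiquitin ligase that activates the RNA sensor RIG-I, was at 8.499, 8.74 and 7.75 FPKM in blue light and 5.13, 2.92 and 2.85 in control (1.197 ± 0.22, unadjusted p = 0.000115, adjusted p = 0.387). GL held a similar level of TRIM25, at 7.83, 7.17 and 7.66, and RL lay within the control range, at 4.58, 4.45 and 4.45. Of the 21 interferon genes 15 stood higher, with a median of 0.06. The RIG-I gene DDX58 was at 30.3, 32.997 and 21.02 against 21.96, 16.3 and 25.6, with overlapping groups. PSMB8, an immunoproteasome subunit, stood lower at 2.18, 1.64 and 2.90 against 3.87, 4.30 and 3.09 (unadjusted p = 0.0492).

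Cytokine and adhesion genes were mostly too low to be tested, with 10 of 27 passing the level rule and 8 of these higher. CXCL8, the neutrophil chemokine interleukin 8, was at 0.576, 6.91 and 1.22 FPKM against 0.377, 0.923 and 2.52, and PTGS2, the inducible cyclooxygenase, at 5.66, 18.3 and 4.33 against 4.90, 6.05 and 8.03. Blue light 2 was the highest library for both. The interleukin 1 receptor antagonist IL1RN was at 65.8, 47.8 and 60.8 against 41.6, 60.7 and 52.5. NF-kB genes were higher in 10 of 19, with NFKB2 at 12.7, 15.2 and 12.4 against 10.9, 9.04 and 11.7, the only separated member. In the complement and antigen presentation list, 6 of 14 stood higher and C1R was at 3.39, 4.28 and 5.20 against 7.77, 5.84 and 5.13 (unadjusted p = 0.0401).

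The collagen and basement membrane lists had more members lower than higher, and the proteoglycan list was even. Of 14 fibrillar and associated collagens 4 were higher (median log2 difference -0.14), of 19 basement membrane genes 6 (median -0.18) and of 16 proteoglycan genes 8 (median 0.03). The collagens turned without blue light 1, which gave 10 of 14 higher and a median of 0.12, and without the 3 libraries with most retinal transcript, which gave 11 and 0.15. The basement membrane genes did not turn, with 5 of 19 higher (median -0.21) and 2 (-0.15) in these fits. With the covariate 9 of 19 stood higher (-0.05). COL1A1 spread widely, at 349, 1067 and 2454 FPKM against 938, 1811 and 1979, and COL1A2 did so too, at 1010, 2385 and 3731 against 2348, 3066 and 2959, with blue light 1 the lowest for both. COL16A1, a fibril-associated collagen, was more even, at 74.0, 85.0 and 98.8 against 124, 103 and 112 (-0.40 ± 0.16, unadjusted p = 0.0323). BGN (biglycan), a small proteoglycan, was at 40.7, 50.5 and 47.1 against 61.7, 101 and 71.9 (-0.77 ± 0.36, unadjusted p = 0.0549). COL16A1 and BGN separated the groups downward, 1 of the 14 collagens and 1 of the 16 proteoglycan genes. So did 1 of the 19 basement membrane genes, against 4.38% of all genes.

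For collagen processing and crosslinking, 2 of 17 stood higher, a direction that turned without the 3 libraries with most retinal transcript (9 of 17, median 0.05) and with the covariate (9, 0.05). TGM2, a transglutaminase that crosslinks matrix proteins, was at 6.79, 6.98 and 8.07 FPKM against 12.0, 12.0 and 17.4 (-0.93 ± 0.32, unadjusted p = 0.0129), and LOX (lysyl oxidase) overlapped at 69.1, 106 and 108 against 99.7, 88.3 and 108. The proteases and inhibitors were lower in 14 of 17, and in the same alternatives 9 and 10 of 17 stood higher. PLAU, urokinase, was an exception at 81.0, 131 and 63.6 against 54.2, 40.9 and 68.2 (0.76 ± 0.31, unadjusted p = 0.0309). ADAMTS1, a proteoglycan-cleaving enzyme, was at 2.32, 1.52 and 1.42 against 1.36, 5.71 and 3.49 (unadjusted p = 0.0416). Neither PLAU nor ADAMTS1 separated the groups.

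Of 26 Wnt pathway genes 7 stood higher, with a median of -0.15, and 4 separated the groups, all downward (4.38% of all genes). Without the 3 libraries with most retinal transcript, 13 of 26 stood higher with a median of 0.00. WNT16 was at 0.176, 0.834 and 0.305 FPKM against 1.59, 1.49 and 2.40 (-2.04 ± 0.70, unadjusted p = 0.0122), so WNT16 met the level rule through control alone, and WNT5B, another ligand, was at 1.33, 1.23 and 0.823 against 1.97, 2.14 and 2.50 (-0.97 ± 0.54, unadjusted p = 0.095). The secreted antagonists SFRP1 and DKK3 stood lower with them, SFRP1 at 5.44, 11.1 and 11.3 against 14.1, 14.95 and 17.9 (-0.75 ± 0.29, unadjusted p = 0.0225) and DKK3 at 37.7, 46.04 and 35.5 against 47.8, 59.6 and 51.9. Abundant ligands did not separate, with WNT3 at 32.2, 37.4 and 38.7 against 34.4, 36.5 and 33.7 and WNT4 at 59.3, 57.9 and 58.2 against 33.1, 67.5 and 80.1.

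TGF-beta, Hippo, Notch and EGF lists had medians between -0.07 and 0.10 and no separated member. In the TGF-beta list SKIL, a SMAD co-repressor, was at 15.96, 20.99 and 8.04 FPKM against 6.39, 5.58 and 8.72 (1.12 ± 0.46, unadjusted p = 0.0308), and TGFBI, a secreted corneal matrix protein, at 458, 637 and 745 against 874, 694 and 693. YAP1, the Hippo effector, was at 52.5, 57.6 and 46.7 against 57.7, 52.1 and 62.8. EGFR was at 47.6, 43.2 and 53.01 against 48.5, 35.5 and 42.3. The eye transcription factors, with a median of 0.02, included PAX6 at 377, 217 and 322 against 336, 289 and 319.

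Barrier genes had few members that differed. OCLN (occludin, of tight junctions) was at 26.2, 35.3 and 25.99 FPKM against 25.5, 19.8 and 19.1 (0.44 ± 0.19, unadjusted p = 0.036), and 16 of 26 junction genes stood higher. PADI3 and PADI4, enzymes that convert arginine in proteins to citrulline, stood lower. PADI3 was at 1.86, 14.7 and 1.51 against 53.03, 30.5 and 42.8 (-2.79 ± 0.69, unadjusted p = 0.00162), and PADI4 at 2.05, 2.43 and 2.88 against 3.47, 5.01 and 6.64 (-1.04 ± 0.43, unadjusted p = 0.033). In GL and RL the level of PADI3 was at or above 37.6 in every library, and its difference from their mean was -2.98 (unadjusted p = 0.000655). Blue light 2 was the high library of its group, and without it PADI3 passed the threshold against control at -4.65 (adjusted p = 0.000166). Of the 13 cornification genes tested, 6 stood higher, with a median log2 difference of -0.17. The median was -0.33 without the 3 libraries with most retinal transcript (6 higher) and 0.05 with the covariate (7 higher). KRT80, a keratin, was the third that separated downward (4.38% of all genes), at 2.90, 2.61 and 2.13 against 3.05, 3.30 and 3.03. The other members overlapped, with IVL (involucrin) at 1.05, 10.1 and 2.49 against 0.777, 2.51 and 1.07 and KRT10 at 19.2, 19.7 and 19.9 against 14.1, 26.5 and 25.3. Mucin and tear film genes were higher in 8 of 10 with a median of 0.32, none separated, and among them GALNT3, which starts mucin O-glycans, was at 20.7, 18.6 and 12.2 against 12.5, 10.3 and 10.8 (unadjusted p = 0.035). Water channels and pumps were higher in 6 of 19, and 3 separated the groups, all downward (4.38% of all genes), none with an unadjusted p under 0.05. Without the 3 libraries with most retinal transcript 9 of 19 stood higher, and with the covariate 10. AQP3, the epithelial aquaglyceroporin, stood higher on average but overlapped, at 195, 312 and 311 against 181, 192 and 226.

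Energy metabolism gave no shared direction for respiration. Of 51 nuclear-encoded oxidative phosphorylation genes 26 stood higher, with a median of 0.00, and ATP5J was the only one with an unadjusted p under 0.05. Glycolysis was higher in 7 of 23, with a median of -0.10 and no p under 0.05. Without the 3 libraries with most retinal transcript 9 of 23 stood higher (median -0.05), and with the covariate 15 (0.05). ENO1 (enolase, also an abundant lens and corneal protein) was at 1084, 1855 and 1597 FPKM against 2452, 2418 and 1808 (-0.56 ± 0.27, unadjusted p = 0.0573). Cholesterol synthesis (9 of 21 higher) and fatty acid genes (9 of 18) were level. DDIT4, an inhibitor of mTOR signalling listed with hypoxia genes, was at 10.1, 7.18 and 11.5 against 9.49, 24.03 and 21.7 (-0.95 ± 0.39, unadjusted p = 0.0309). In the retinoid list the gene annotated as CYP26A1, which breaks down retinoic acid (LOC100346910), was at 25.96, 41.4 and 36.7 against 26.5, 17.2 and 10.7 (0.94 ± 0.33, unadjusted p = 0.0137).

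Cytosolic ribosomal protein genes were level as lists, with medians of -0.04 for the large and 0.00 for the small subunit. RPSA, a small-subunit protein also known as the laminin receptor, was at 322, 224 and 401 FPKM against 472, 624 and 548 (-0.80 ± 0.24, unadjusted p = 0.00582). RPL23A was at 2074, 913 and 1420 against 901, 52.4 and 61.6, and RPL35A at 1794, 1813 and 1581 against 373, 736 and 1627. Control 2 and 3 were the low libraries for RPL23A, which passed without control 1 (adjusted p = 0.0021). Ribosomal protein genes have many near-identical copies in mammalian genomes, so these gene-level values are uncertain.

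**Figure D5:**
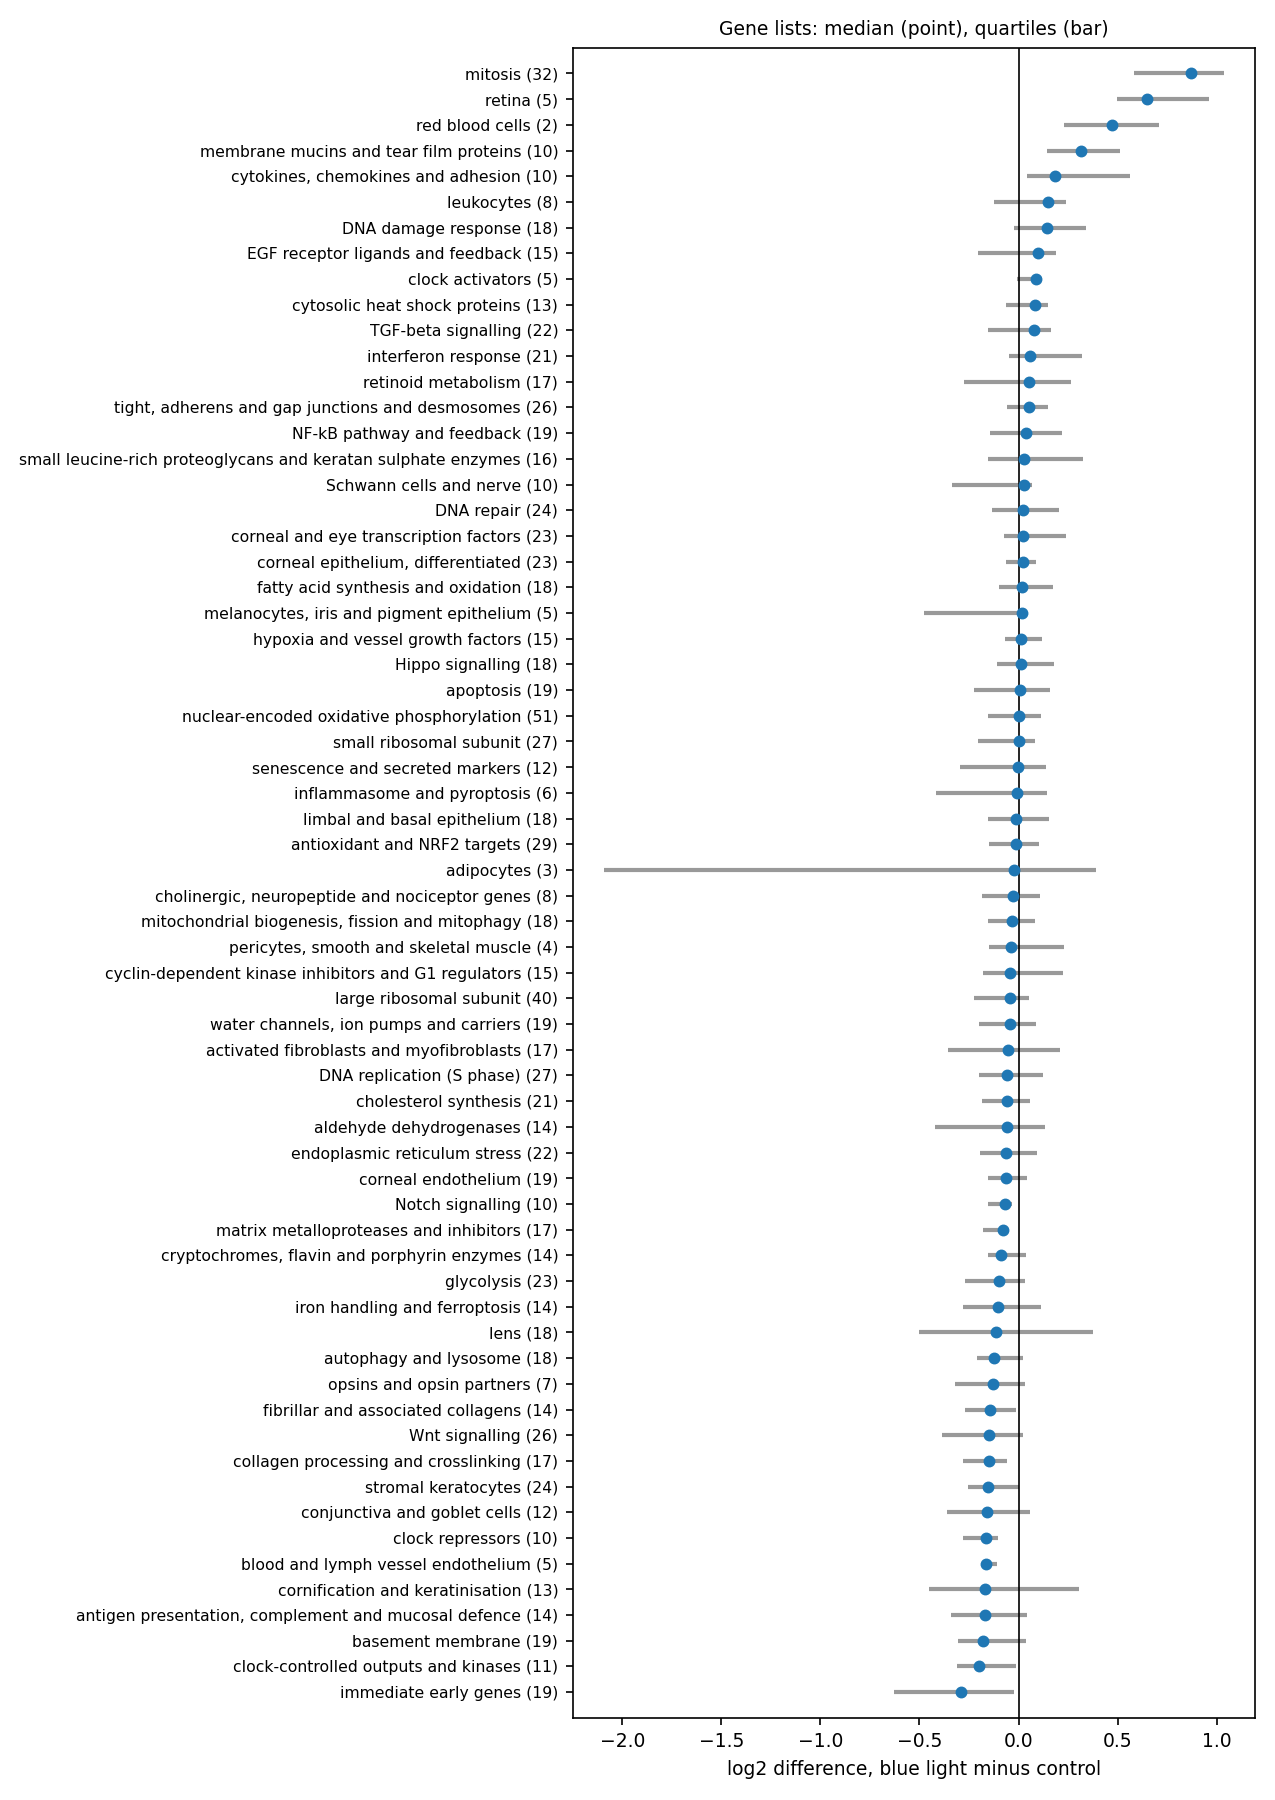
Median (point) and quartiles (bar) of the members' log2 differences, blue light minus control, for 64 gene lists, with the number of genes tested in brackets and a line at the median of all genes (0.0018). Mitosis has the highest median, 0.87, and nearly all other lists have medians between -0.3 and 0.35, retina (5 genes) and red blood cells (2 genes) excepted. Both quartiles lie above 0 for mitosis and for the cytokine, mucin and tear film, retina and red blood cell lists.

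The symbol-bearing genes with the smallest p among those whose groups did not overlap lay outside a single pathway. TTC9, a small tetratricopeptide protein, was at 26.6, 19.8 and 25.02 FPKM in blue light and 6.85, 4.01 and 3.36 in control (2.33 ± 0.45, unadjusted p = 0.000216, adjusted p = 0.579). GL held TTC9 at 11.8, 24.9 and 8.21 and RL at 2.92, 4.40 and 1.59. SLC25A24, a mitochondrial carrier of ATP-Mg and phosphate, was even within groups, at 21.3, 21.6 and 19.3 against 12.7, 13.8 and 15.3 (0.57 ± 0.14, unadjusted p = 0.00142). CMC2, a mitochondrial cysteine-motif protein, was at 4.52, 4.07 and 3.41 against 2.31, 1.68 and 1.59, and MPP7, a scaffold of cell polarity, at 14.4, 16.2 and 13.2 against 9.32, 7.55 and 6.68. TPMT, a thiopurine methyltransferase, was at 5.72, 7.13 and 4.34 against 2.82, 1.66 and 2.94. TSTD2, PRUNE1 (a phosphodiesterase) and the splicing factor SRSF10 completed the 12 with TRIM25, ARNTL, CDK1 and KIF14, with log2 differences of 1.005, 1.12 and 0.89.

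On the lower side LPL, lipoprotein lipase, led with 0.504, 1.12 and 0.311 FPKM in blue light and 1.497, 21.5 and 11.4 in control (-4.16 ± 0.85, unadjusted p = 0.000354, adjusted p = 0.678). Control 1 was again next to the blue light values, and RL held LPL at 0.465, 0.844 and 0.333. Without control 1 LPL and TRIM25 passed the threshold, at -4.68 and 1.52 on the log2 scale (adjusted p = 0.0179 and 0.00647). KCNAB1, a potassium channel subunit, was more even, at 5.41, 8.09 and 4.73 against 17.1, 14.5 and 15.4 (-1.37 ± 0.29, unadjusted p = 0.000456). SELENBP1, a methanethiol oxidase, was at 39.2, 54.9 and 64.7 against 129, 149 and 106 (-1.27 ± 0.33, unadjusted p = 0.00232). SPOCK2, a matrix proteoglycan, was at 4.50, 4.66 and 4.38 against 6.33, 7.33 and 8.15, and the chloride channel family member CLIC5, which met the level rule through control alone, at 0.235, 0.291 and 0.277 against 1.02, 2.33 and 1.13. CCDC69, ANKRD16 and the pseudouridine synthase TRUB2 had log2 differences of -0.69, -0.91 and -0.71, and PADI3, LENEP, NR1D1 and KIT made up the rest of the 12.

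Among these 24 genes, the 7 with the smallest unadjusted p against the mean of GL and RL were KCNAB1, PADI3, SELENBP1 and SPOCK2, which stood lower by -1.17, -2.98, -1.18 and -0.81 on the log2 scale, and SLC25A24, TSTD2 and TTC9, which stood higher by 0.69, 0.88 and 1.77. None of the 7 passed the adjusted threshold there. That comparison shares the blue light libraries with the one against control, so the pair is not independent. Others, such as TRIM25, ARNTL, MPP7, LPL and LENEP, differed from GL and RL by 0.45, 0.19, 0.18, -0.93 and 0.14, smaller than their differences from control.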

How the data were processed

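RNA was measured in 12 rabbit cornea libraries, grouped by the labels. The authors deposited a table with, in each library, the estimated count and the FPKM of every gene, per the file headers. No source used here gives the aligner or counter, and the submitters' processing notes name a mouse build although the table lists rabbit sequences. Counts are whole numbers that pile up in steps of about 3.79, taken as the counts per fragment. A count of 0 carries an FPKM of 1e-04, shown as 0, and a detection floor is 3 fragments.

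EdgeR 4.0.16 (R 4.3.3) quasi-likelihood tests (glmQLFit, glmQLFTest; 2-sided) with TMM scaling were run on the counts of 13414 genes, of which 2715 have no symbol, with 4 group means over 12 libraries. Contrasts were blue light minus control and blue light minus the mean of GL and RL. P-values were adjusted by Benjamini-Hochberg over all genes tested, with a threshold of 0.05; single-gene p-values named without "adjusted" are unadjusted edgeR values. Standard errors are the log2 coefficient over the square root of F. Levels are FPKM. The procedure was tested on simulated counts. Alternatives used limma 3.58.1 on log2(FPKM + 1) and log2(FPKM + 0.1), voom with quality weights, DESeq2 1.42.0, other scalings, filters and covariates, a replicate block, and omission of libraries. Omission of GL and RL libraries from the control contrast, and of controls from the other, was added after seeing the data.

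The members and the 64 gene lists (1414 entries) were chosen with earlier results of these data known. Genes were named by rule: every called gene and the gene it copies, the 12 higher and 12 lower symbol genes of smallest p with non-overlapping groups, and from each list the first 2 members and up to 4 of smallest p, or any member of a list with at most 20 tested genes. NUF2, TPX2, UBE2C, MKI67, TOP2A, PLK1 and PRC1 of the mitosis list and 2 unnamed copies, LOC100343607 and LOC100345312, fall outside this rule and were picked with their values in view. A few genes that the rule names are not reported here.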

Additional observations from a re-analysis of the deposited data

How the results depend on the processing

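The count of 3 genes that differed between blue light and control became 15 by DESeq2, 5 by voom with quality weights, 9 in the 6 libraries alone and 1 without the 3 libraries with most retinal transcript, and omission of single libraries gave 2 to 12. The single gene against GL and RL became 95 by DESeq2, 9 by limma on log2(FPKM + 1), 20 by voom with quality weights, 4 at an FPKM of at least 5, 8 with no filter beyond a count above 0, 5 with counts divided by the step, 0 (297 at an unadjusted p under 0.05, by edgeR) without those 3 libraries, and 1 to 31 when single libraries were omitted. The extremes were without control 1 (12) and without RL 1 (31). The cause was not tested. Labels share replicate numbers. Between blue light and control, same-numbered libraries had deviations correlated at -0.093 to 0.122, and 2 of 6 libraries were closest to their own number. Over all 4 groups, pairs numbered 1 were all positive, from 0.074 to 0.353 (control 1 with RL 1). Pairs numbered 2 or 3 ran from -0.093 to 0.179, and pairs of unlike number between groups reached 0.256. With the replicate number as a block, LOC100344965 and LOC100339782 were called in 12 libraries (2 genes; LOC100344261 had an adjusted p of 0.119), and the 1 call in the 6 alone was LOC100343607, with the 3 genes each at 0.078. Over 28 alternatives LOC100344965 missed the threshold in 2, LOC100344261 in 11 of 28 and LOC100339782 in 1 of 27, and none changed sign. Of 130 other named genes, 33 changed sign in some alternative and 9 passed the threshold in at least 1. List medians changed sign for 54 of 64 lists in some alternative. The mitosis median stayed above 0 in each, from 0.50 to 1.45. Depth limits genes near 3 fragments.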

Other observations

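Several lists outside the comparison's main themes held members that separated the groups, without a call. Autophagy and lysosome genes stood higher in 5 of 18. Without the 3 libraries with most retinal transcript 9 of 18 did (median 0.00), and with the covariate 10 (0.05). ATG7, an enzyme of autophagosome formation, was at 4.07, 4.37 and 3.83 FPKM in blue light against 5.29, 5.88 and 5.60 in control (log2 difference -0.45 ± 0.24). In the mitochondrial list, 6 of 18 stood higher and NRF1, the nuclear respiratory factor, was at 3.50, 3.09 and 4.02 against 4.27, 5.36 and 4.65 (-0.43 ± 0.19). Aldehyde dehydrogenases held members in both directions: ALDH5A1 of GABA breakdown was at 4.65, 2.89 and 5.87 against 6.52, 7.88 and 6.45, and ALDH1L2 of mitochondrial folate metabolism at 7.46, 6.36 and 6.99 against 5.80, 5.08 and 5.22. IGFBP5, a secreted binding protein of insulin-like growth factors, was at 54.3, 84.1 and 67.6 against 92.3, 116 and 94.2 (-0.55 ± 0.24). Each of these 5 genes separated the groups and none passed the adjusted threshold. Over all genes 3.71% separated upward and 4.38% downward. In the autophagy list 2 of 18 genes separated, and in the mitochondrial list 2 of 18, all downward. Of 14 aldehyde dehydrogenases 1 separated upward and 1 downward.

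The histo-blood group ABO transferase copy LOC100345312, chosen after its values were seen, was at 3.48, 4.20 and 5.90 FPKM in blue light and had counts of 0 in all 3 controls, so it met the level rule through blue light alone. In GL it was at 0, 2.43 and 0, and in RL at 0.0384, 0.263 and 0.434.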
